A study of Mus musculus with 30 samples.

Results

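The interferon response and antigen presentation genes followed here were a set of 39, named by function and not by how they moved. They comprised 25 genes of the type I interferon response and 14 genes of antigen presentation by MHC molecules. All 39 were in the count tables of both tissues, among 53278 listed genes in the subventricular zone (SVZ), the neurogenic wall of the lateral ventricle, and 50508 in the striatum next to it. A level above 1 CPM (a gene's counts scaled by the total of its library) in 3 or more libraries was asked for, which left 36 members in the SVZ (of 16375 genes tested) and 33 in the striatum (of 15419). Oas1a, Zbp1 and Nlrc5 were too low to test in either tissue, and H2-T23, Cd74 and H2-Ab1 were also too low in the striatum.

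The libraries came from 15 C57Bl/6 mice, 6 to 8 weeks old, each of which gave 1 SVZ and 1 striatum library. NestinTK+ mice carried a viral thymidine kinase under the second intron enhancer of rat Nestin, so that dividing precursor cells with an active enhancer turn ganciclovir (GCV) into a toxin, and NestinTK- mice were their wild-type littermates. GCV or saline (PBS) was delivered for 4 weeks from a subcutaneous osmotic minipump. The groups were NestinTK+ GCV (ablated, n = 5), NestinTK+ PBS (n = 4), NestinTK- GCV (n = 3) and NestinTK- PBS (n = 3), and the last 3 were the 10 controls. The SVZ samples were dissected tissue, although 1 label calls them neural precursor cells, so Nestin-expressing cells were only some of the cells measured. In such bulk RNA, fewer cells of a type and less RNA per cell cannot be told apart. Mouse numbers fall into 2 series, starting with 34 or 40, and these overlap with the groups: all 5 ablated mice, 3 of 4 NestinTK+ PBS and 2 of 3 NestinTK- GCV mice are of the 40 series, and all 3 NestinTK- PBS mice are of the 34 series. What the series stands for is not given in the sources used here. The GCV libraries hold the lower library numbers and the PBS libraries the higher ones, so numbering and treatment cannot be told apart either.

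Type I interferons act through a receptor and its kinases on a complex that holds STAT2 and IRF9 and binds an interferon-stimulated response element (ISRE) in the promoters of antiviral genes. Cytosolic DNA or RNA from dying cells can start the same response through sensors such as Ifih1 (MDA5), Ddx58 (RIG-I) and Zbp1. MHC class I molecules, a heavy chain paired with B2m, show peptides cut by the immunoproteasome and carried into the endoplasmic reticulum by Tap1 and Tap2, and class II molecules with their invariant chain Cd74 do so in professional antigen-presenting cells, in the brain chiefly macrophages and activated microglia.

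The total count was 8360810 to 9595103 in the ablated SVZ libraries and 8947137 to 21056005 in the controls, and 2626962 to 3371033 against 2780471 to 4693441 in the striatum. Of 10 neuroblast markers 5 passed the thresholds of the study in the SVZ (nominal p of at most 0.01 and at least 2-fold), where 1.59% of all genes did. These 5 were all lower in the ablated mice, and none passed as higher. Their list holds Igfbpl1, which the paper reported as lower after ablation, and was drawn up with earlier results of these data known. The 5 calls are therefore no independent check of the ablation. Summed over the 10 markers, the level was 196 to 355 CPM in the ablated SVZ and 292 to 772 in controls, which overlap. In 3 control SVZ libraries (NestinTK+ PBS mouse 1 and NestinTK- PBS mice 1 and 2) the choroid plexus transcript Ttr made up 4.49 to 9.88% of all counts, against at most 0.0789% in the other 12, and the summed level of all 8 choroid plexus markers was at least 4.62e+04 CPM there and at most 829 CPM elsewhere. None of these 3 was an ablated mouse. In the striatum the library of NestinTK+ PBS mouse 4 stood apart, with medium spiny neuron markers summed to 4400.4 CPM against 8375 or more in the other 14, oligodendrocyte markers to 6095 against at most 4679 and choroid plexus markers to 1527 against at most 54.5. Many results that rest on any of these libraries are given with and without them.

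The ISRE core was present in part of the member promoters, mostly those of interferon response genes. RefSeq promoters (GRCm38.p6, 250 bases before to 50 after the start of transcription) were at hand for 30 of the 39 members, and those missing were Tap2, Ifi27, Usp18, Nlrc5, Zbp1, Parp14, H2-Ab1, Cd74 and Rtp4. The letters TTTCNNTTTC, or GAAANNGAAA on the other strand, occurred in 16 of these 30 genes (53.3%) and in 3.99% of all 27025 genes with a promoter. They occurred in 14 of 20 interferon response members (70.0%) and in 2 of 10 antigen presentation members, B2m and H2-T23. The promoters of 6 members are shown. Ifit3, Stat2, Bst2 and B2m, from the members chosen for their roles, hold the ISRE core and were not called. H2-K1 and Irf7, also chosen for their roles, hold none and are not shown. Tapbp and Psmb9, shown because they carried the calls in the SVZ, hold none either. A link between the core and the calls was not tested. Sequences run 5′ to 3′ on the strand of the gene, with matches to the ISRE core in capitals, and overlapping matches run together. A match is a description of letters and not of a bound site. A promoter without a match lacks only these exact letters in the window, and variants of the element were not searched for.
Ifit3 (chr19:34583279-34583578, + strand): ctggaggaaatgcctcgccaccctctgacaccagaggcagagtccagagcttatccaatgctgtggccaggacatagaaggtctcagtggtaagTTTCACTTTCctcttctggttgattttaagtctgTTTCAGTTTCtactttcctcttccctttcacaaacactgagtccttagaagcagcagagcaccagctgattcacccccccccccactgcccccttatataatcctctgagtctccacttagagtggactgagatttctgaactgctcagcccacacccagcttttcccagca
Stat2 (chr10:128270248-128270547, + strand): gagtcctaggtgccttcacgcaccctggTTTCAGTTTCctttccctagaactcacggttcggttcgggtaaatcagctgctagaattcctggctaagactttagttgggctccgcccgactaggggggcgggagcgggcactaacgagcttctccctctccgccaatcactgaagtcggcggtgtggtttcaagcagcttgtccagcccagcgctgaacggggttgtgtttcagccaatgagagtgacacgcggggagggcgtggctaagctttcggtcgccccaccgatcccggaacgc
Bst2 (chr8:71537423-71537722, - strand): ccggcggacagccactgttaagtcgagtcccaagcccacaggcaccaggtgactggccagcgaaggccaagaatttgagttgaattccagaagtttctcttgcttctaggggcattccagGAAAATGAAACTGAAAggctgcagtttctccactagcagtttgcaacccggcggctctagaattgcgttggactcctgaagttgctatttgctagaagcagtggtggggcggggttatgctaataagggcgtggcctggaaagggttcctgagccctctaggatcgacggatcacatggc
B2m (chr2:122147437-122147736, + strand): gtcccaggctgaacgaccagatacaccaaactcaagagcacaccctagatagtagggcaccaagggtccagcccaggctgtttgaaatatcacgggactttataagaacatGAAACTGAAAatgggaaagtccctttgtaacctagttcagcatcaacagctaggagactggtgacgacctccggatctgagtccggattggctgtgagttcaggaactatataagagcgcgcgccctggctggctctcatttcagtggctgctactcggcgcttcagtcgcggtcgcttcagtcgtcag
Tapbp (chr17:33919228-33919527, + strand): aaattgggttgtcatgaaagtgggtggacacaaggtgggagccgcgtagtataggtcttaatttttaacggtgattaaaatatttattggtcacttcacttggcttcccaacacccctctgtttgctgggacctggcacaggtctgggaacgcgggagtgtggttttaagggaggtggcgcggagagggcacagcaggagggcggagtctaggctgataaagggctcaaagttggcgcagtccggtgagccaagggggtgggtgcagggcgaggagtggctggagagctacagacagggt
Psmb9 (chr17:34187281-34187580, - strand): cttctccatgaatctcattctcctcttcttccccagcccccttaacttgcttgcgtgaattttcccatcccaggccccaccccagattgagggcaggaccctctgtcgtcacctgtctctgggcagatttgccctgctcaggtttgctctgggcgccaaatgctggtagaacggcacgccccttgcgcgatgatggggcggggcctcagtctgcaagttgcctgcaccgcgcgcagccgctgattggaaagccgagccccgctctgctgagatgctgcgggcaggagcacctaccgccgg
The Ifit3 promoter held the ISRE core at -156 and -122, the Stat2 promoter at -222, the B2m promoter at -139 and the Bst2 promoter at -130 and -124, counted from the start of transcription.

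The first question was whether killing of precursor cells left a trace in these genes. In the SVZ, none of the 36 members tested passed the thresholds of the study in ablated mice against the 10 controls, where 1.59% of all genes did. In the striatum none of 33 passed, against 0.694% of all genes. The ablated and control libraries overlapped for every member in both tissues (they did not for 0.263% of all genes in the SVZ and 0.506% in the striatum). By edgeR's quasi-likelihood test, Benjamini-Hochberg adjusted over all genes, no member had an adjusted p under 0.05 (0.00611% of all SVZ genes and 0.182% of all striatal genes had one). At an unadjusted p of at most 0.05 there were 2 in the SVZ, Ifi27 and H2-Ab1, both lower in ablated mice (9.81% of all genes), and 1 in the striatum, Ifit2, also lower (10.5%).

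**Figure D1:**
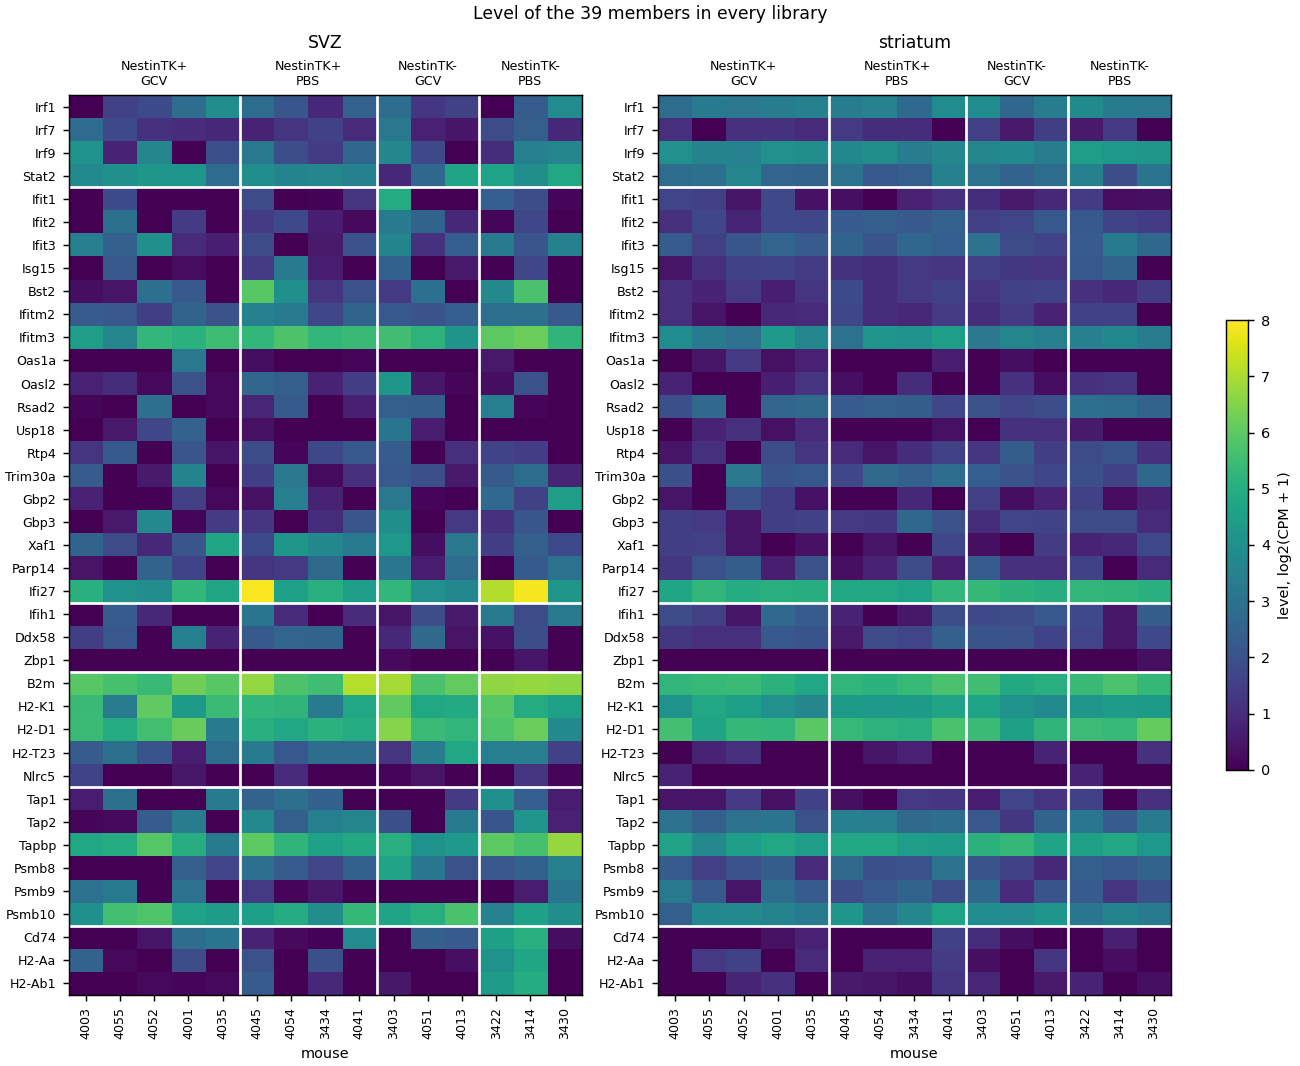
Levels of the 39 members in the 15 mice, as log2(CPM + 1), with SVZ libraries in one panel and striatum libraries in the other. White lines separate the 4 groups and the roles of the genes. The SVZ panel is patchy within every group, with members at 0 in one mouse and well above it in the next, while levels in the striatum run evenly along each gene.

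The size of a difference that these libraries could show differed between the tissues. The median member lay 0.43 lower in log2 in the ablated SVZ (14 members higher, 22 lower, against a median of -0.027 over all genes) and 0.13 lower in the ablated striatum (9 higher, 24 lower, all genes 0.0037). The SVZ shift was gone with the mouse number series as a term (median 0.012) and without the 3 libraries with Ttr (0.017). The median half-width of the 95% interval was 2.58 in log2 for SVZ members and 0.952 for striatal ones. A 2-fold rise in ablated mice lay outside the interval for 11 of 36 members in the SVZ and for 22 of 33 in the striatum. Both a 2-fold rise and a 2-fold fall lay outside it for 1 SVZ member and 11 striatal ones. Changes of these members with ablation were thus bounded more tightly in the striatum than in the SVZ.

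Within a group, single SVZ members were absent in one mouse and present in another. In 24 of 36 SVZ members (66.7%), and in 30.2% of all genes tested, at least 1 group held a library with 0 counts beside a library with 20 or more. In the striatum this was so for 2 of 33 members (6.06%; Isg15 and Trim30a) and 0.636% of all genes. Below, levels are CPM of the library total, and within a group they are listed from mouse 1 to the last mouse of the group, the same animals in both tissues.

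Of the signalling factors, Stat2, the partner of IRF9 in the ISRE-binding complex, was detected in every library. It was at 12.8, 15.3, 17.9, 17.0 and 5.98 CPM in the NestinTK+ GCV SVZ and at 14.0, 11.3, 12.0 and 10.5 in NestinTK+ PBS. In NestinTK- GCV mice it was at 0.881, 5.46 and 24.5, and in NestinTK- PBS at 23.8, 14.3 and 27.0. The ablated libraries sat inside the range of the controls, which ran from NestinTK- GCV mouse 1, with 12 counts of Stat2, to NestinTK- PBS mouse 3. The log2 difference, ablated minus controls, was 0.075 (SE 0.55, 95% interval -1.08 to 1.23). In the striatum Stat2 was at 6.18, 6.74, 11.4, 5.04 and 4.87 CPM in ablated mice, 7.24, 3.60, 4.31 and 10.4 in NestinTK+ PBS, 6.92, 4.83 and 6.15 in NestinTK- GCV and 10.4, 2.77 and 7.52 in NestinTK- PBS, a difference of 0.039 (SE 0.30, 95% interval -0.59 to 0.67). The groups overlapped fully in both tissues.

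Irf7, the factor that amplifies the type I response once it has begun, was low throughout. In the SVZ it was at 5.97, 2.37, 1.19, 1.04 and 0.837 CPM in ablated mice, 0.742, 1.33, 1.93 and 0.951 in NestinTK+ PBS, 8.15, 0.656 and 0.413 in NestinTK- GCV and 2.56, 4.32 and 0.894 in NestinTK- PBS. The highest libraries were a wild-type mouse on the drug (NestinTK- GCV mouse 1) and an ablated mouse (mouse 1), and the difference between ablated and control mice was 0.19 (SE 0.93, 95% interval -1.75 to 2.13). In the striatum no library held more than 8 counts of Irf7, and its difference was -0.21 (SE 0.76, 95% interval -1.78 to 1.36). Irf1 and Irf9, the interferon gamma and ISRE factors, had SVZ differences of 0.33 and 0.31 and striatal ones of -0.23 and -0.092. All 4 signalling factors were thus above 0 in the ablated SVZ and 3 of 4 were below 0 in the ablated striatum, none past a threshold.

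Ifit3, an antiviral protein of the IFIT family with 2 ISRE cores in its promoter, stood for the effectors. In the SVZ it was at 9.80, 4.50, 15.3, 0.938 and 0.598 CPM in ablated mice and at 2.60, 0, 0.482 and 3.01 in NestinTK+ PBS, where all 4 values were under the 3 highest of the ablated mice. It was at 11.2, 1.20 and 4.21 in NestinTK- GCV and at 9.13, 3.28 and 10.5 in NestinTK- PBS, which overlapped the ablated mice. The difference from all controls was 0.56 (SE 0.99, 95% interval -1.50 to 2.62), and from NestinTK+ PBS alone 2.19 (SE 1.29, 95% interval -0.53 to 4.90). In the striatum Ifit3 was at 4.00, 1.87, 3.43, 5.04 and 3.90 CPM in ablated mice, 4.99, 3.24, 5.39 and 4.22 in NestinTK+ PBS, 6.92, 2.66 and 2.05 in NestinTK- GCV and 3.88, 8.95 and 5.58 in NestinTK- PBS. The striatal difference of -0.44 (SE 0.35, 95% interval -1.15 to 0.28) left a 2-fold rise outside its interval. Ifit3 shares 51.2% of its 50-base words with its neighbour Ifit3b, so reads could have been split between them.

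Ifitm3, which blocks viral entry at endosomes and is well expressed by brain endothelium, was detected in every library of both tissues. It was at 21.1, 11.6, 37.9, 33.9 and 44.6 CPM in ablated mice, 38.3, 53.9, 38.6 and 40.8 in NestinTK+ PBS, 46.1, 35.1 and 16.6 in NestinTK- GCV and 62.3, 72.3 and 36.4 in NestinTK- PBS. The 2 highest values belonged to the NestinTK- PBS mice with choroid plexus transcripts. The difference of ablated from control mice was -0.47 (SE 0.33, 95% interval -1.16 to 0.23), or -0.23 without the 3 libraries with Ttr. In the striatum it was at 13.8, 8.99, 6.85, 19.3 and 11.7, 6.99, 17.3, 16.0 and 21.4, 7.99, 11.8 and 9.79 and 10.4, 12.4 and 9.46 CPM in the same order of groups. That difference was -0.056 (SE 0.26, 95% interval -0.59 to 0.48), with no group apart from the rest.

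Bst2 (tetherin), which holds budding virus at the cell surface, showed how a few libraries shaped the SVZ pattern. It was at 0.225, 0.355, 6.56, 3.75 and 0 CPM in ablated mice, 59.8, 15.3, 1.33 and 3.01 in NestinTK+ PBS, 1.54, 6.56 and 0 in NestinTK- GCV and 12.7, 51.1 and 0 in NestinTK- PBS. The 2 highest were NestinTK+ PBS mouse 1 and NestinTK- PBS mouse 2, the libraries with the most Ttr. The log2 difference was -2.75 (SE 1.46, 95% interval -5.80 to 0.29) over all libraries (unadjusted p = 0.0739 and adjusted p = 0.565 by edgeR's quasi-likelihood test) and -0.75 (unadjusted p = 0.631) without the 3 libraries with Ttr. In the striatum Bst2 was at 1.09, 0.749, 1.52, 0.593 and 1.30 CPM in ablated mice, 2.497, 1.08, 1.51 and 1.97 in NestinTK+ PBS, 1.33, 1.93 and 2.05 in NestinTK- GCV and 1.21, 0.852 and 1.70 in NestinTK- PBS, a difference of -0.66 (SE 0.50, 95% interval -1.68 to 0.36) on few counts.

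**Figure D2:**
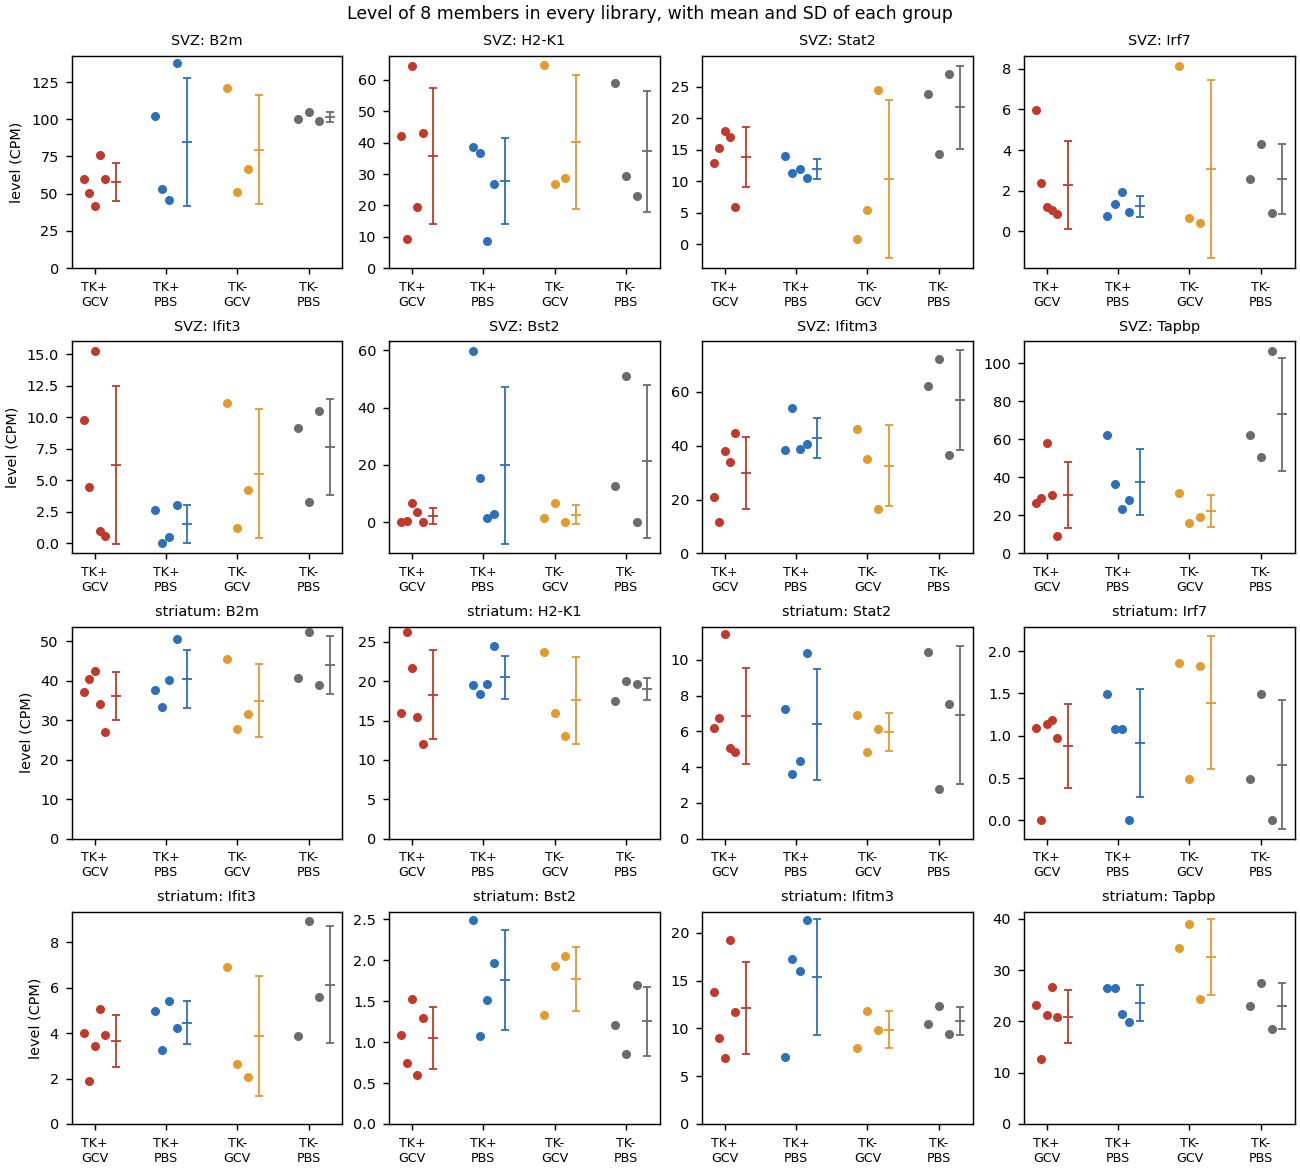
Levels of B2m, H2-K1, Stat2, Irf7, Ifit3, Bst2, Ifitm3 and Tapbp in CPM, with 1 dot per mouse and the mean and SD of each of the 4 groups, for the SVZ and the striatum. Ablated and control dots overlap for every gene in both tissues. For SVZ Tapbp, the 3 NestinTK- GCV dots lie below the 3 NestinTK- PBS dots.

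The other effectors gave no common direction in the SVZ. Over all 17 tested effectors, 6 were higher and 11 lower in ablated mice, with a median of -0.53, and the largest differences, Gbp2 (-3.04), Ifit1 (-2.76) and Bst2, were all lower. Ifit1, which binds RNA without a 2′-O-methyl cap, was at 0 in 4 of 5 ablated libraries and at 29.3, 0 and 0 CPM in NestinTK- GCV mice. Isg15, the ubiquitin-like modifier, Oasl2, Rsad2 (viperin), Usp18, Rtp4, Trim30a, Gbp3, Xaf1, Parp14, Ifit2 and Ifitm2 differed by between -1.65 (Oasl2) and 0.89 (Usp18). In the striatum 4 effectors were higher and 13 lower in ablated mice, median -0.13. There Ifit2, another IFIT protein, was at 1.09, 2.25, 0.761, 2.37 and 2.27 CPM in ablated mice and 3.99, 4.32, 3.67 and 4.78 in NestinTK+ PBS, chosen here after its values were seen. These groups did not overlap, as in 3.48% of all genes, and the difference was -1.26 (SE 0.47, 95% interval -2.23 to -0.29) with an unadjusted p of 0.0129 (-1.22 and 0.0286 for Ifit2 without NestinTK+ PBS mouse 4). NestinTK- mice overlapped the ablated mice, at 1.86, 2.18 and 3.64 with GCV and 3.63, 2.13 and 1.70 with PBS. The 2 sensors tested were split in both tissues: Ifih1 had differences of -1.56 in the SVZ and 0.51 in the striatum, Ddx58 0.53 and -0.13. Zbp1, the sensor of Z-form nucleic acid, was at 0 in all 5 ablated libraries of either tissue.

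**Figure D3:**
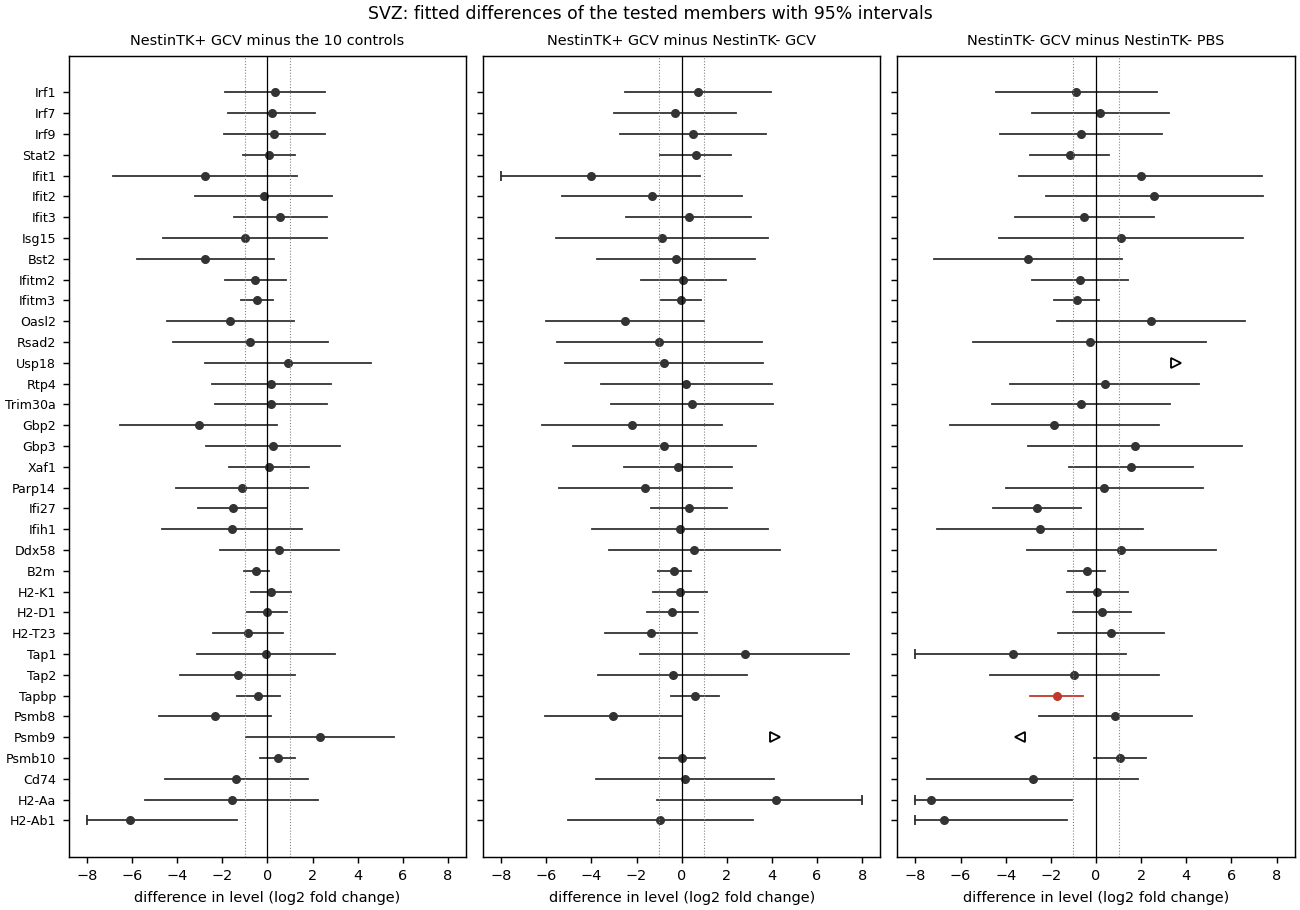
Log2 differences of the SVZ members with 95% intervals, for ablated minus control mice, NestinTK+ GCV minus NestinTK- GCV, and NestinTK- GCV minus NestinTK- PBS. Dotted lines mark 2-fold, open triangles mark lower bounds where 1 group is at 0, and ticks at the edge mark intervals that run past it. Tapbp in the last panel is the only member in red, the colour of a call, and most intervals span both dotted lines.

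Among the MHC class I members, B2m, the shared light chain, was at 60.1, 50.4, 42.0, 76.3 and 59.7 CPM in the ablated SVZ and 102, 53.4, 45.5 and 138 in NestinTK+ PBS. It was at 121, 50.8 and 66.9 in NestinTK- GCV and at 100.4, 105 and 99.1 in NestinTK- PBS mice. Ablated mice lay in the lower part of the control range, and the difference was -0.48 (SE 0.26, 95% interval -1.03 to 0.065), unadjusted p = 0.0809 and adjusted p = 0.577 by edgeR's quasi-likelihood test. A 2-fold rise of B2m was thus outside its interval. Without the 3 libraries with Ttr the SVZ difference of B2m was -0.35. In the striatum B2m was at 37.1, 40.4, 42.6, 34.1 and 27.0, 37.7, 33.4, 40.3 and 50.6, 45.5, 27.8 and 31.7 and 40.7, 52.4 and 39.1 CPM in the 4 groups in the same order, with a difference of -0.19 (SE 0.15, 95% interval -0.50 to 0.11). The direction was the same in both tissues, and neither passed a threshold.

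The heavy chain H2-K1 varied more between mice than between groups. Its SVZ levels were 42.0, 9.35, 64.6, 19.4 and 43.2 CPM in ablated mice, 38.6, 36.6, 8.62 and 26.7 in NestinTK+ PBS, 64.8, 26.9 and 28.9 in NestinTK- GCV and 59.1, 29.5 and 23.02 in NestinTK- PBS, a difference of 0.15 (SE 0.42, 95% interval -0.72 to 1.03). In the striatum they were 16.0, 26.2, 21.7, 15.4 and 12.0, 19.5, 18.3, 19.6 and 24.5, 23.7, 16.0 and 13.0 and 17.4, 20.0 and 19.7, a difference of -0.13 (SE 0.18, 95% interval -0.50 to 0.25). The second heavy chain, H2-D1, differed by -0.014 in the SVZ and 0.0029 in the striatum, and the nonclassical H2-T23 by -0.84 in the SVZ. The heavy chains share sequence (8.11% of the 50-base words of H2-K1, 14.3% of H2-D1 and 15.0% of H2-T23 occur in other genes), so their counts are uncertain to that extent. Summed over the class I members, the level was 159 to 274 CPM in the ablated SVZ against 149 to 363 in controls, and 127 to 151 against 125 to 189 in the striatum.

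**Figure D4:**
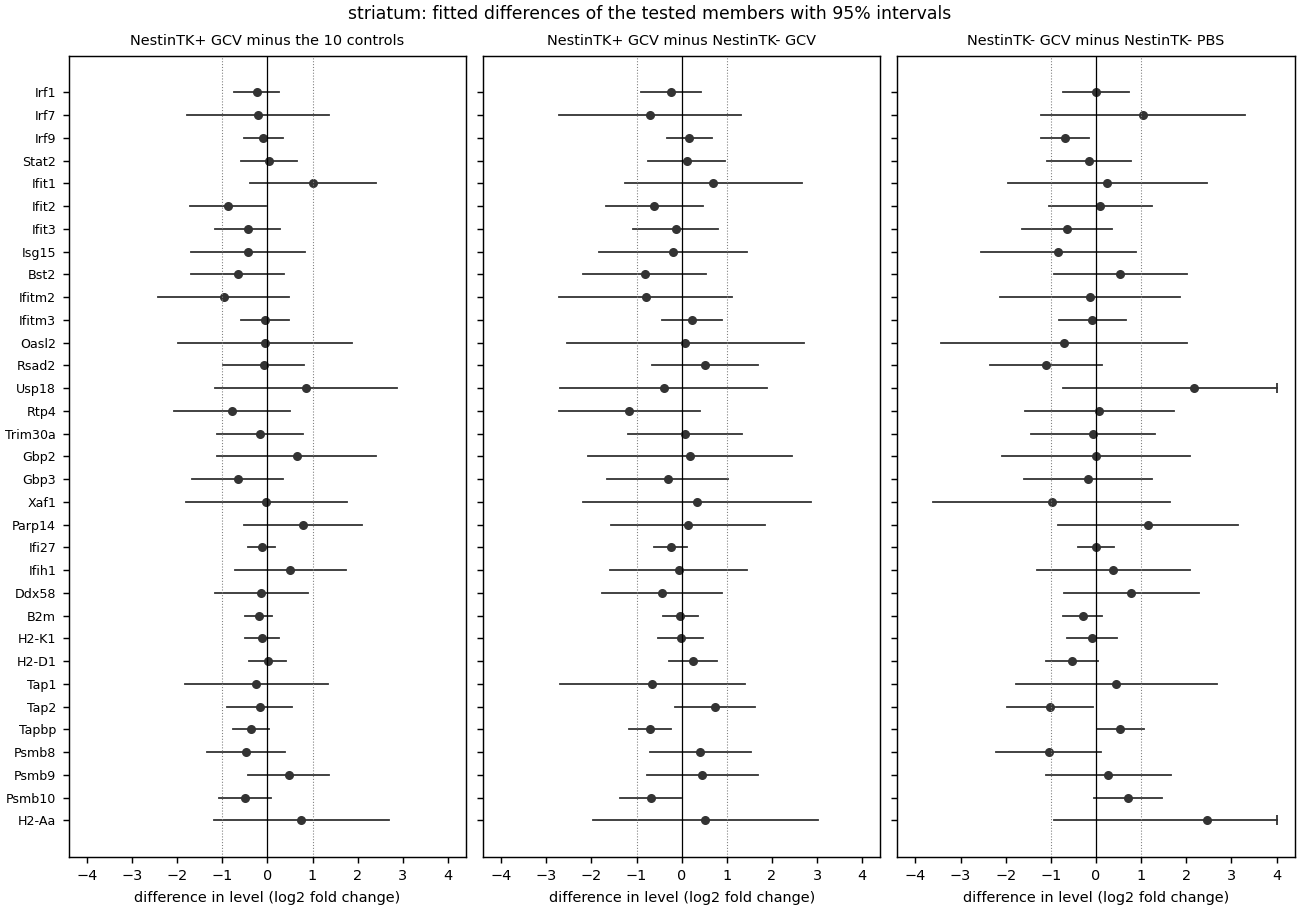
Log2 differences of the striatal members with 95% intervals, in the same 3 comparisons as for the SVZ. Dotted lines mark 2-fold. No member is called, and the intervals of B2m, H2-K1 and H2-D1 stay within the dotted lines in ablated minus control mice.

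The genes that supply peptides to class I gave the calls of this set, and none of them was a difference of ablated from pooled control mice. The first concerned the drug alone, GCV against PBS in mice with no transgene. In the SVZ, 1 of 36 members passed the thresholds, where 1.06% of all genes did, and at an unadjusted p of at most 0.05 there were 6 (7.65% of all genes), 1 higher and 5 lower. The call was Tapbp (tapasin, chr17:33915899-33929292), the chaperone that bridges class I and the peptide transporter. It was at 31.9, 16.1 and 19.2 CPM in NestinTK- GCV mice and at 62.0, 50.5 and 107 in NestinTK- PBS mice, and these groups did not overlap, as in 11.3% of all genes. Tapbp fell with the drug, with a log2 difference of -1.75 (SE 0.56, 95% interval -2.93 to -0.57), unadjusted p = 0.00613 and adjusted p = 0.646 by edgeR's quasi-likelihood test. Without the 3 libraries with Ttr the difference was -2.30, with 1 NestinTK- PBS mouse left. With the mouse number series as a term it was -1.72 with an unadjusted p of 0.0237, and the call was lost. NestinTK+ mice spanned both, at 26.4, 29.2, 58.0, 30.7 and 9.09 with GCV and 62.2, 36.4, 23.1 and 28.0 with PBS. Of its exon bases, 24.9% overlap a gene on the other strand, and whether counting used strand is not given in the sources used here.

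The same gene went the other way in the striatum. Tapbp was at 34.3, 38.9 and 24.4 CPM in NestinTK- GCV and 23.02, 27.5 and 18.4 in NestinTK- PBS mice, a difference of 0.54 (SE 0.25, 95% interval 0.019 to 1.05) with an unadjusted p of 0.0426. In the ablated striatum it was at 23.3, 12.7, 21.3, 26.7 and 20.8, and in NestinTK+ PBS at 26.5, 26.6, 21.4 and 20.0. Against NestinTK- GCV mice, the log2 difference of the ablated mice was -0.70 (SE 0.23, 95% interval -1.17 to -0.24), unadjusted p = 0.00463 and adjusted p = 0.0857 by edgeR's quasi-likelihood test, short of 2-fold. With NestinTK+ PBS mouse 4 left out of the fit, which is in neither group but bears on the estimated spread, the Tapbp difference was -0.70 with an adjusted p of 0.0452 by the same edgeR test. The 2 tissues were prepared with different kits, and the difference between them was not tested.

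Psmb9 (LMP2, chr17:34181987-34187764) and Psmb10 (MECL-1, chr8:105935735-105938444), catalytic subunits of the immunoproteasome, passed the thresholds in the interaction, the effect of GCV in NestinTK+ mice minus that in NestinTK- mice. This was 1 of 36 members in the SVZ (0.837% of all genes) and 1 of 33 in the striatum (3.28%), and at an unadjusted p of at most 0.05 there were 3 in each (5.09% and 15.1%). SVZ Psmb9 was at 7.10, 9.11, 0, 7.09 and 0 CPM in ablated mice and 1.56, 0.0784, 0.422 and 0 in NestinTK+ PBS. It was at 0 in all 3 NestinTK- GCV mice and at 0, 0.522 and 7.71 in NestinTK- PBS, so that 2 ablated mice were at 0 as well and the groups overlapped. The interaction was 11.29 (SE 3.77, unadjusted p = 0.00865, adjusted p = 0.942 by edgeR's quasi-likelihood test), a fitted value that depends on the group at 0 and is no bound. Without the 3 libraries with Ttr, which leaves 1 NestinTK- PBS mouse, the fitted interaction was 14.28. Set against a floor of 3 counts per library, the mean of the ablated mice, 2 of which were at 0, lay at least 4.13 in log2 above NestinTK- GCV mice. This bound does not hold for each ablated mouse, and Psmb9 was no call between these 2 groups.

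Striatal Psmb10 was detected in every library. It was at 4.36, 12.4, 12.6, 11.0 and 8.77 CPM in ablated mice, 17.0, 6.83, 12.1 and 24.2 in NestinTK+ PBS, 13.8, 13.5 and 17.3 in NestinTK- GCV and 7.75, 11.3 and 8.98 in NestinTK- PBS. The drug went with lower levels in NestinTK+ mice (-0.66, unadjusted p = 0.0415) and with higher ones in NestinTK- mice (0.71, unadjusted p = 0.0627). The interaction was -1.37 (SE 0.47, 95% interval -2.35 to -0.39), unadjusted p = 0.00825 and adjusted p = 0.157 by edgeR's quasi-likelihood test. The highest Psmb10 level was that of NestinTK+ PBS mouse 4, the library that stood apart in its neuron and choroid plexus markers. Without it the interaction was -1.09 with an unadjusted p of 0.0234, no longer a call, and the difference with the drug in NestinTK+ mice was -0.39 (unadjusted p = 0.224). With the mouse number series as a term the interaction was -1.23 (unadjusted p = 0.0213), also no call. In the SVZ the corresponding value for Psmb10 was -0.58 and for Psmb9 in the striatum 0.033, so neither subunit was called in both tissues. Tap1, Tap2 and Psmb8, the other genes of this role, differed by -0.062, -1.32 and -2.33 in the ablated SVZ and by -0.25, -0.17 and -0.47 in the ablated striatum. Across the 6 tested genes of peptide supply, 2 were higher and 4 lower in the ablated SVZ and 1 higher and 5 lower in the ablated striatum.

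The drug alone otherwise moved no member past the thresholds. The SVZ median was -0.46 (16 higher, 20 lower, all genes -0.028). It turned to 1.54 without the 3 libraries with Ttr, which leaves 1 NestinTK- PBS mouse, and was -1.23 without NestinTK- GCV mouse 1 and -0.073 without NestinTK- PBS mouse 2. In the striatum, where 0 of 33 members and 2.46% of all genes passed (3 members and 16.1% of all genes at an unadjusted p of at most 0.05), the median was -0.0029 (15 higher, 18 lower, all genes 0.0087). Striatal Irf9, the DNA-binding part of the ISRE complex, had the smallest unadjusted p there. It was at 11.7, 12.8 and 9.56 CPM in NestinTK- GCV and 20.8, 18.3 and 17.7 in NestinTK- PBS mice, a difference of -0.70 (SE 0.26, 95% interval -1.23 to -0.16) with an unadjusted p of 0.0126. In NestinTK+ PBS mice it was at 12.2, 14.4, 9.28 and 12.1, below the NestinTK- PBS mice too, and in NestinTK+ GCV mice at 15.6, 10.9, 10.7, 15.4 and 14.6. For Irf9 the 3 NestinTK- PBS mice were therefore above every other mouse, ablated or not. Irf9 was picked by its p among the 33 members. In the SVZ the NestinTK- GCV and NestinTK- PBS groups did not overlap in 11.3% of all genes. The striatal share is not given here. Usp18, the protease that removes Isg15, was at 0 in all 3 NestinTK- PBS SVZ libraries and at 7.56, 0.546 and 0 in NestinTK- GCV mice, of which mouse 1 alone exceeded 1 CPM.

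The comparisons within a genotype or a drug gave the same counts. Against NestinTK+ PBS, 0 of 36 SVZ members and 0 of 33 striatal members passed in NestinTK+ GCV mice (1.19% and 1.35% of all genes), with medians of -0.13 and -0.022, which turned to 0.11 in the SVZ without the libraries with Ttr and to 0.072 in the striatum without NestinTK+ PBS mouse 4. Against NestinTK- GCV, which holds the drug constant, 0 and 0 passed (0.940% and 2.10% of all genes), with medians of -0.12 and -0.027. The SVZ median turned to 0.94 without NestinTK- GCV mouse 1 and to 0.53 with the mouse number series as a term. For the transgene alone, NestinTK+ PBS against NestinTK- PBS, 0 and 0 passed (0.195% and 0.830% of all genes), and the SVZ median was -0.61, which turned to 0.77 without the libraries with Ttr. At an unadjusted p of at most 0.05 these 3 comparisons held 1, 1 and 0 members in the SVZ (7.13%, 7.45% and 2.69% of all genes) and 2, 2 and 1 in the striatum (10.1%, 17.7% and 6.41%). No member had an adjusted p under 0.05 by edgeR in any of the 12 comparisons. Such genes made up 0.149% of all striatal genes against NestinTK+ PBS, 3.13% against NestinTK- GCV, 2.06% for the drug alone and 0.817% in the interaction, and 0.00% for the transgene alone. In the SVZ they made up 0.00% in these 5 comparisons, and the shares in ablated against pooled control mice are those given above. The comparisons share libraries and are not independent of one another.

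The highest SVZ levels of the MHC class II members were in NestinTK- PBS mice 1 and 2, whose libraries also held choroid plexus transcripts. In the third library with Ttr, NestinTK+ PBS mouse 1, the class II members summed to 7.64 CPM. That was below NestinTK+ PBS mouse 4 (13.4) and ablated mouse 4 (9.07). H2-Ab1 alone of them was higher in all 3 libraries with Ttr (3.93 CPM or more) than in every other library (at most 0.844). Cd74, the invariant chain, was at 0, 0, 0.358, 6.25 and 7.65 CPM in ablated mice, 0.742, 0.157, 0.0603 and 13.4 in NestinTK+ PBS, 0, 4.48 and 3.88 in NestinTK- GCV and 22.2, 33.1 and 0.224 in NestinTK- PBS. NestinTK- PBS mice 1 and 2 were highest, and the difference of ablated from control mice was -1.39 (SE 1.52, 95% interval -4.56 to 1.79), or 0.017 without the 3 libraries with Ttr. H2-Ab1, a class II beta chain, reached 20.2, 30.0 and 0 CPM in NestinTK- PBS mice and at most 0.120 in ablated mice. Its difference was -6.10 (SE 2.28, 95% interval -10.85 to -1.34) with an unadjusted p of 0.0146, and without those libraries it was too low to test. H2-Aa, the alpha chain, was at 16.2, 25.2 and 0 CPM in NestinTK- PBS mice, and its difference went from -1.59 to 1.87 without them. In the striatum Cd74 reached 7 counts at most, in NestinTK+ PBS mouse 4 at 1.97 CPM, and of the class II members H2-Aa alone could be tested (0.75 (SE 0.94, 95% interval -1.19 to 2.70)).

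Ifi27, an interferon-induced mitochondrial protein, was high in all 3 libraries with Ttr. It was at 33.1, 16.1, 14.1, 38.0 and 25.0 CPM in the ablated SVZ, 241, 23.1, 32.4 and 21.1 in NestinTK+ PBS, 37.9, 15.6 and 12.2 in NestinTK- GCV and 134, 234 and 17.7 in NestinTK- PBS. The 3 libraries with Ttr were at 134 CPM or more and every other library was at 38.0 or less. The difference of ablated from control mice was -1.53 (SE 0.73, 95% interval -3.06 to -0.0068) with an unadjusted p of 0.0491, and 0.29 (unadjusted p = 0.477) without the 3 libraries. For the drug alone it was -2.61 (unadjusted p = 0.0121) and 0.27 without them. Without these libraries the median over 35 tested members was 0.017 in the ablated SVZ, in place of -0.43, and again no member was called. In the striatum Ifi27 was at 25.4, 37.1, 30.1, 31.4 and 30.5 CPM in ablated mice and between 23.9 and 39.4 in controls, with a difference of -0.13 (SE 0.14, 95% interval -0.42 to 0.17). The part of choroid plexus tissue in these SVZ values was not tested beyond leaving the libraries out.

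**Figure D5:**
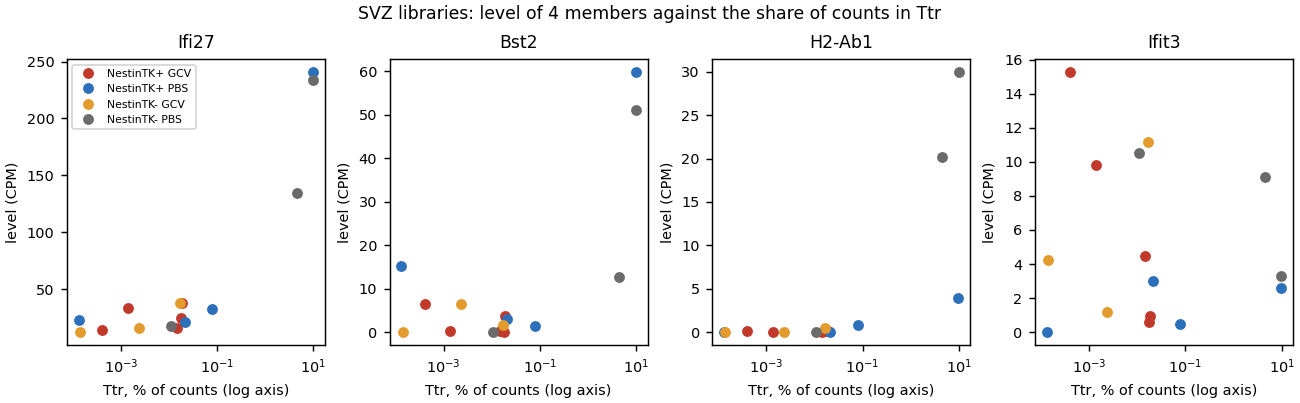
SVZ levels of Ifi27, Bst2, H2-Ab1 and Ifit3 in CPM against the share of counts from Ttr in percent, on a log x axis, with 1 point per mouse. The 3 control libraries with Ttr between 4.49 and 9.88% have the 3 highest values of Ifi27 and H2-Ab1, while Ifit3 in them lies within the range of the other 12.

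The markers of cell types that can carry these genes were summed per library. The 12 microglia markers summed to 554 to 785 CPM in the ablated SVZ and 497 to 821 in controls, and to 567 to 670 against 575 to 778 in the striatum, and none of the 12 was called in ablated against control mice. The 12 lymphocyte markers summed to 23.4 to 134 CPM in the ablated SVZ and 32.4 to 87.0 in controls. In the striatum they summed to 40.9 to 55.0 against 32.4 to 68.7 CPM. Among them, Cd3e was at 0 in all libraries, and in ablated mice 7 of 12 lymphocyte markers were at 0 in the SVZ and 11 of 12 in the striatum. The striatal sum in ablated mice thus came from the only marker not at 0, so the lymphocyte sums are a poor measure of lymphocytes. The 12 markers of border macrophages and dendritic cells summed to 1.55 to 16.7 CPM in the ablated SVZ and 2.35 to 14.9 in controls, with Cd209a at 0 in both. The 10 endothelial markers summed to 239 to 337 against 174 to 309 CPM there.

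The rest of the pathway, from lists drawn up by function, was counted in the same comparisons. Of 84 further interferon-stimulated genes, 51 could be tested in the SVZ and 54 in the striatum, and 0 were called in ablated against control mice in either tissue, with 21 higher and 30 lower in the SVZ and 27 and 27 in the striatum. Of 23 interferon ligands, receptors and kinases, 12 were tested in each tissue and 0 called, and of 18 genes of nucleic acid sensing 12 and 13 were tested and 0 called. Of 23 further class I genes, 14 and 11 were tested and 0 called. Of 9 further class II genes 6 and 4 were tested, and 1 was called in the SVZ, H2-Eb1, another class II beta chain. It was at 0, 0, 0, 0.521 and 0 CPM in ablated mice, 3.41, 1.18, 0.241 and 4.36 in NestinTK+ PBS, 1.83, 0.109 and 0 in NestinTK- GCV and 35.5, 30.3 and 0 in NestinTK- PBS, again highest in NestinTK- PBS mice 1 and 2. The log2 difference was -5.98 (SE 2.01, 95% interval -10.17 to -1.79), unadjusted p = 0.00754 and adjusted p = 0.379 by edgeR's quasi-likelihood test, and -3.08 (unadjusted p = 0.102) without the 3 libraries with Ttr, where it was no longer called.

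Over these lists together, 92 genes that are no members were tested in the striatum. Of these, 2 (2.17%) had an adjusted p under 0.05 against NestinTK- GCV, where 3.13% of all genes did, and 1 (1.09%) did for the drug alone, where 2.06% of all genes did, so that neither share was above that of all genes. Tdrd7, an interferon-induced Tudor protein, was at 23.2, 10.2 and 23.9 CPM in NestinTK- GCV and 53.1, 29.2 and 59.9 in NestinTK- PBS mice, and fell with the drug, a log2 difference of -1.26 (SE 0.29, 95% interval -1.86 to -0.67), adjusted p = 0.0255 by edgeR's quasi-likelihood test. In ablated mice it was at 52.3, 35.9, 35.0, 44.5 and 31.5, above NestinTK- GCV mice by 0.98 (adjusted p = 0.0433 by the same edgeR test), and in NestinTK+ PBS at 26.7, 24.1, 38.6 and 43.9. Ifngr1, the ligand-binding chain of the interferon gamma receptor, was at 23.3, 21.3, 15.6, 17.2 and 16.6 CPM in ablated mice and 36.7, 34.3 and 29.8 in NestinTK- GCV mice, a difference of -0.92 (SE 0.22, 95% interval -1.37 to -0.46), adjusted p = 0.0235 by edgeR. It was at 16.7, 23.02, 33.9 and 21.6 in NestinTK+ PBS and 14.8, 22.2 and 21.6 in NestinTK- PBS mice. In both genes the 3 NestinTK- GCV mice stood apart from the NestinTK- PBS mice, so the comparison with the drug held constant and the drug alone turned on the same 3 libraries. The share of all striatal genes in which these groups stand apart is not given here. Both were also called in the interaction, Tdrd7 at 1.48 and Ifngr1 at -1.21 (adjusted p = 0.0592 and 0.0735 by edgeR). At the nominal thresholds, 0 to 2 of 93 such genes tested in the SVZ (at most 2.15%) and 0 to 3 of 92 in the striatum (at most 3.26%) were called in a comparison. The further SVZ calls were Ciita, the class II transactivator, at 0 in all ablated mice (a bound of -2.93 in log2 against NestinTK+ PBS), Cd1d1 (-6.37 against NestinTK- GCV), H2-M3 (at least 3.46 in log2 against NestinTK- GCV, which were at 0, and a bound of -4.44 for the drug alone, and a fitted interaction of 8.77 that is no bound) and Phf11b (-12.66 in the interaction). Without the 3 libraries with Ttr, H2-M3 against NestinTK- GCV was the one of these that stayed a call, and Ciita and Phf11b were too low to test. The further striatal calls were Irf5 (-1.41) and Ifit3b (-1.02) with the drug alone and Dtx3l (-2.66) with the transgene alone, at adjusted p of 0.0788, 0.141 and 0.727 by edgeR's quasi-likelihood test. Ifit3b was no longer a call without NestinTK+ PBS mouse 4 (unadjusted p = 0.0104).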

How the data were processed

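RNA from dissected SVZ was amplified with SMART-Seq v4 (10 cycles) and striatal RNA with QuantSeq 3′ FWD, and single-end reads were sequenced on an Illumina NextSeq. Per the paper's methods and the labels, the authors trimmed reads with Trimmomatic (0.36 in the submitters' processing notes), aligned them with STAR 2.5.3a to mm10/GRCm38 and assigned them to Gencode M16 genes with featureCounts. The deposited values are raw counts per gene, 1 table per tissue, and no column was left without a sample. Settings for strand and multiply mapped reads are not given in the sources used here.

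Genes above 1 CPM in 3 or more libraries were tested with edgeR 4.0.16 (R 4.3.3; quasi-likelihood, TMM factors, each tissue apart). The ablated mice were compared with 10 pooled controls in a 2-group fit, and the other 5 contrasts came from a 4-group fit. A call is a nominal p of at most 0.01 with at least 2-fold, the thresholds of the study, which used limma; adjusted p-values are Benjamini-Hochberg over all genes tested. DESeq2 1.42.0, limma-voom 3.58.1, other scalings and filters, a mouse number series term and leaving libraries out were tried as alternatives. Levels are CPM of raw library totals. The edgeR test was also run on simulated negative binomial counts, in which no library held excess Ttr. The outcome is not given here, and the run is no check of the test on these members. Gene positions and overlaps come from a GRCm38 annotation, promoters from RefSeq.

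Values in every library are given for 8 members fixed by role, except striatal Irf7 and Cd74, which were low. They are also given for each member with a nominal p of at most 0.01 in a comparison, in that tissue. Genes of other pathway lists are named where called. Members and lists were chosen with earlier results of these data known. Mice are separate animals, and p-values measure the spread between them.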

Additional observations from a re-analysis of the deposited data

Results flagged for a closer look

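Among the members given for every library, 39 groups of 4 or 5 libraries were tested for a library far from the others of its group, and 5 were found. The rule is met in about 1 of 20 groups where values are normally distributed. That rate does not hold for low counts with zeros, so 5 of 39 is not to be read as an excess. SVZ Ifitm3 was highest in NestinTK+ PBS mouse 2, at 53.9 CPM with the next at 40.8. SVZ Cd74 was highest in NestinTK+ PBS mouse 4, at 13.4 CPM with the next at 0.742. The same mouse had the highest striatal Cd74, at 1.97 CPM, while the other 3 mice of its group were at 0. Striatal Irf7 was lowest in ablated mouse 2, at 0 against 0.974 CPM for the next. Striatal Stat2 was highest in ablated mouse 3, at 11.4 CPM with the next at 6.74.

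The effect of ganciclovir differed for 2 members between genotypes by the interaction term. For SVZ Psmb9 the effect in NestinTK+ mice exceeded that in NestinTK- mice by a fitted log2 value of 11.29, with 1 group at 0 throughout. For striatal Psmb10 the effect in NestinTK+ mice minus that in NestinTK- mice was -1.37. Neither had an adjusted p under 0.05 by edgeR's quasi-likelihood test.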

How the results depend on the processing

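The group comparisons within a tissue were unpaired, because each mouse is in 1 genotype and treatment group only. The SVZ and striatum libraries of a mouse are a pair across tissues. That pairing was not used, since each tissue was tested apart. In ablated against control mice, the count of called SVZ members went from 0 to 2 at an unadjusted p of at most 0.05 with no fold minimum, to 1 with no filter and with DESeq2 (H2-Ab1) and to 1 with limma-voom (Psmb8). Against NestinTK+ PBS it went from 0 to 1 at the looser p and to 2 with no filter (Bst2 and Ifi27), and against NestinTK- GCV from 0 to 1 at the looser p, with no filter, with DESeq2 (Psmb9) and with limma-voom (Psmb8). For the drug alone it went from 1 to 6 at the looser p, to 5 with no filter or DESeq2 (Ifi27, Tapbp, Psmb9, H2-Ab1 and H2-Aa for the latter) and to 0 with a mouse number series term. For the SVZ interaction it went from 1 to 3 at the looser p, 2 with no filter and 0 with limma-voom or the series term. In the striatum the looser p gave 1, 2, 2, 3, 1 and 3 members in the 6 comparisons, and the interaction call was lost (0) with library totals alone and with the series term. Leaving out 1 mouse at a time gave 0 to 1 SVZ members against NestinTK- GCV, 0 to 2 for the drug alone, 0 to 1 for the transgene alone and 0 to 2 for the interaction, and 0 to 1 striatal members against NestinTK+ PBS and for the interaction. It left 0 in ablated against control mice in both tissues. SVZ Tapbp with the drug alone ranged from -2.11 to -1.39 and lost its call without NestinTK- GCV mouse 2 or 3 or NestinTK- PBS mouse 3, Psmb9 from 8.04 to 12.89 and striatal Psmb10 from -1.58 to -1.09, each losing the call in 10 of 15 fits. Signs in ablated against control mice turned, none of them a call, for SVZ Stat2 with library totals alone (-0.059), Cd74 without the libraries with Ttr (0.017) and Tapbp with the series term (0.055), and for striatal Irf7 with limma-voom (0.11) and Ifit3 with the series term (0.045). Without 1 mouse they turned for SVZ H2-K1 (-0.15 to 0.39), Irf7 (-0.53 to 0.70), Stat2 (-0.068 to 0.28) and Ifit3 (-0.038 to 0.87) and striatal Irf7 (-0.36 to 0.092), Stat2 (-0.21 to 0.14) and Ifitm3 (-0.28 to 0.091). The cause of these shifts was not tested. Over all genes, calls in ablated SVZ went from 260 to 1342 with no filter, 490 with DESeq2 and 171 with limma-voom. In the striatum they went from 107 to 330 with no filter, 190 with limma-voom and 175 with the series term. For the drug alone in the SVZ they went from 174 to 413 with no filter, 433 with DESeq2 and 152 with the series term. Against NestinTK- GCV in the SVZ they went from 154 to 434 with no filter, 435 with DESeq2 and 191 with limma-voom. Against NestinTK+ PBS in the SVZ they went from 195 to 554 with no filter. In the SVZ interaction they went from 137 to 532 with no filter, 151 with limma-voom and 92 with the series term. Library totals alone moved the median of all SVZ genes to -0.16. With no filter, and without NestinTK+ PBS mouse 4, striatal Tapbp against NestinTK- GCV had an adjusted p under 0.05 by edgeR. Zeros beside 20 or more counts within a group, in 24 of 36 SVZ members at 8360810 counts or more per library, limit what the SVZ could show.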

Other observations

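NestinTK- GCV mouse 1, a wild-type mouse on the drug, had the highest SVZ level of several interferon-stimulated genes among all 15 mice. It was highest for 8 of 23 tested interferon response members, against 8.22% of all genes, for 3 of 13 antigen presentation members and for 7 of 51 further interferon-stimulated genes. Ifit1 was at 29.3 CPM there and at most 4.30 in any other mouse. Oasl2 was at 17.8, Gbp3 at 14.8, Irf7 at 8.15, Usp18 at 7.56 and the immunoproteasome subunit Psmb8 at 23.2 CPM. Stat2, in contrast, was lowest in this library, at 0.881 CPM. In the striatum of the same mouse 3 of 23 interferon response members and 7 of 54 further interferon-stimulated genes were highest, against 5.57% of all genes, and Ifit1 was at 1.07 CPM. The NestinTK- GCV group holds 3 mice, and the pattern was noticed after the values were seen.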
